A study of Homo sapiens with 12 samples.

Results

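Molecular chaperones of the cytosol and mitochondria were followed in the RNA of MDA-MB-231 cells after knockdown of NONO or PKM2. The genes were chosen by name, by a rule that uses no measured value but was drawn up with earlier results of these data known. The choice took the HSPA, HSPB, HSPD, HSPE, HSPH, HSP90A, DNAJA, DNAJB, DNAJC and CCT gene names together with TCP1, HSF1, HSF2 and BAG3, and left out HSPA5, DNAJB9, DNAJB11 and DNAJC3 of the endoplasmic reticulum (ER), HSPG2 and pseudogene names. It gave 79 gene identifiers of the 60558 that the tables of both experiments share, with 78 names because HSPA14 has 2 identifiers. By family these were 13 HSP70, 3 HSP110, 2 HSP90, 8 small heat shock protein (small HSP), 2 mitochondrial chaperonin and 8 TRiC genes, 4 DNAJA, 11 DNAJB and 25 DNAJC genes, and the regulators HSF1, HSF2 and BAG3. The names do not follow compartment strictly, since DNAJB12, DNAJB14, DNAJC1, DNAJC10, DNAJC18, DNAJC25 and HSPA13 encode proteins of the ER or its membrane and stayed in. HSPA7 and DNAJB3 are annotated as pseudogenes but do not have pseudogene names, so they stayed in too.

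Chaperones bind unfolded chains and release them in cycles of ATP hydrolysis. HSP70 proteins take clients from J proteins (the DNAJ families), which raise their ATPase activity, and HSP110 proteins reload them with ATP. HSP90 acts late, on kinases and receptors, and TRiC, a ring of CCT subunits, folds actin and tubulin. In mitochondria the HSP60 ring (HSPD1) and its HSP10 lid (HSPE1) fold imported proteins. HSF1 is the main transcription factor of the heat shock response and binds heat shock elements in the promoters of many of these genes, and many cancer cells rely on high chaperone levels.

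MDA-MB-231 is an established human triple-negative breast cancer (TNBC) line. The labels give 4 groups of 3 libraries: NONO-knockdown cells with their own negative control (NC) group, and PKM2-knockdown cells with another NC group, so the 2 experiments share no library. The series' design text names siRNA as the means of knockdown, without saying which siRNA was used for these libraries, and all groups carry the line's own genome with no further allele or drug. Nothing says that the replicates were separate cultures, so P values measure the spread between these libraries, which may be technical.

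Each library held 19861762 to 28455268 estimated counts. NONO was at 222 to 233 TPM (a level scaled to transcript length and to the library) in its 3 NC libraries and at 47.2 to 50.1 TPM after NONO knockdown. PKM, the gene that encodes PKM1 and PKM2, was at 1770 to 1840 TPM in its NC libraries and at 164 to 170 TPM after PKM2 knockdown, and gene counts do not separate the isoforms. The mesenchymal markers VIM and CD44 averaged at least 285 TPM in all 4 groups, ESR1, PGR, CDH1 and the leukocyte marker PTPRC averaged at most 0.157 TPM, and ERBB2 averaged 14.3 to 30.8 TPM. NC library 1 of the NONO experiment and library 3 of the PKM2-knockdown group lay farthest from their replicates (chi-square per degree of freedom 9 to 13.6, against 2.35 to 4.45 in all other pairs), and results that turn on a single library are named beside them.

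The chaperone genes were among the abundant messages of these cells. Together they held 11290 ± 823.1 TPM in NC and 12140 ± 277.9 TPM in knockdown libraries of the NONO experiment, and 12120 ± 463.6 TPM and 13510 ± 36.06 TPM in the PKM2 experiment (SD, n = 3 each). HSP90AB1, HSPA8, HSP90AA1, HSPE1 and HSPD1 held 47.8% of this sum in the NC libraries of the NONO experiment and 48.2% in those of the PKM2 experiment. At the other end, 16 of the 79 genes averaged under 1 TPM in each NC group. The 13 that did not pass the filter on low counts in either experiment were DNAJA4, DNAJB3, DNAJB7, DNAJB8, DNAJB13, DNAJC12, HSPA7, HSPB2, HSPB3, HSPB6, HSPB7, HSPB8 and HSPB9, so HSPB1 and HSPB11 were the only small HSP genes tested. Exons of 29 of the 79 genes overlap those of a gene on the other strand, where reads can be told apart only if strand was used in counting.

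**Figure D1:**
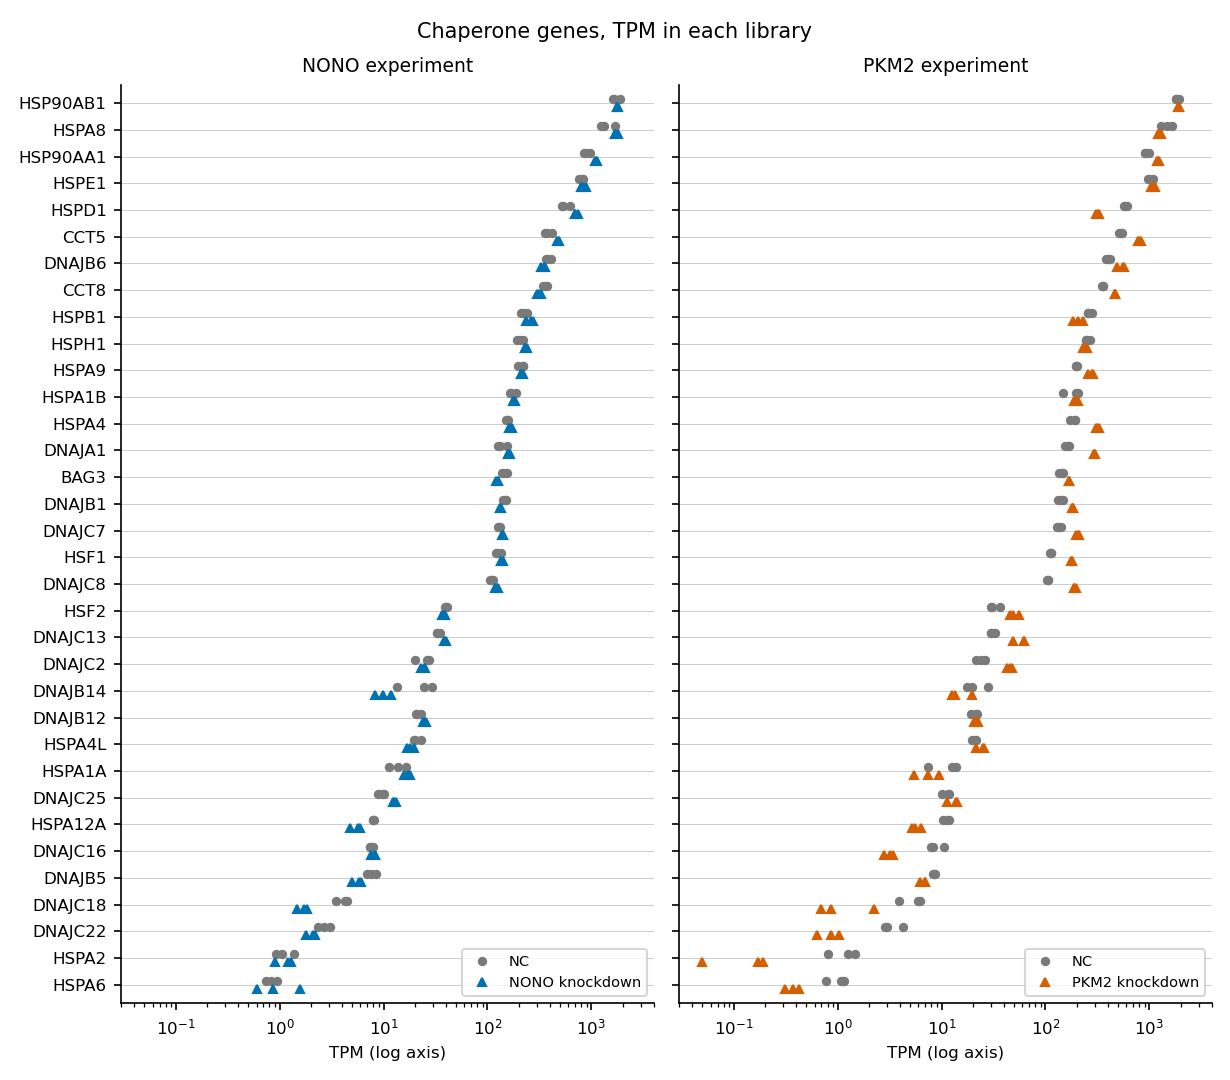
TPM (log axis) of 34 chaperone genes in each library of the NONO experiment (left) and the PKM2 experiment (right), with grey circles for NC and coloured triangles for knockdown libraries, ordered by their level in NC. HSP90AB1, at 1600 to 1930 TPM, lies at the top, and HSPA2 fell to 0.05 to 0.19 TPM after PKM2 knockdown.

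Whether chaperone genes changed after each knockdown was asked with edgeR's quasi-likelihood test on the counts of all genes, and a gene was called at an adjusted P below 0.05 (Benjamini-Hochberg, over every gene tested). After NONO knockdown, 29 of the 66 chaperone genes tested were called (43.9%), 21 raised and 8 lowered, where 33.4% of all 14832 genes tested were called, 16.2% raised and 17.2% lowered. This count was 18 without NC library 3, 18 without knockdown library 3 and 19 without knockdown library 2. After PKM2 knockdown, 52 of 66 were called (78.8%), 37 raised and 15 lowered, where 68.4% of all 15524 genes were called, 33.6% raised and 34.7% lowered. The median log2 fold change of the 66 was 0.07 after NONO knockdown and 0.20 after PKM2 knockdown, and that of all genes was -0.01 in both. Changes after NONO knockdown lay between -0.63 and 0.46 on the log2 scale, and in the edgeR fit none passed the study's cutoff for differentially expressed genes (DEGs), an unadjusted P below 0.05 and more than a 2-fold change, which 2.95% of all genes passed. By the same cutoff limma called 2 DEGs on log2(TPM + 0.1) and 1 on log2(TPM + 1), and edgeR called 1 without the filter on low counts. After PKM2 knockdown 9 chaperone genes were DEGs (13.6%, against 20.8% of all genes). DNAJC2, DNAJC8 and DNAJC13 were raised (7.05% of all genes were raised DEGs), and DNAJC16, DNAJC18, DNAJC22, HSPA2, HSPA6 and HSPA12A were lowered (13.8% of all genes were lowered DEGs). On TPM values limma called 3 lowered DEGs (DNAJC16, DNAJC18 and DNAJC22) and 0 raised. HSPA2 and HSPA6 averaged under 1 TPM over these libraries, so the limma fits with a TPM filter did not test them. In the limma fit without that filter their log2 fold changes were -0.93 and -0.54, short of 2-fold. On log2(TPM + 1) the log2 fold changes were 0.90 for DNAJC2, 0.86 for DNAJC8 and 0.87 for DNAJC13, and their limma adjusted P was 8.09e-05, 4.36e-06 and 0.0003. On log2(TPM + 1) values tested with limma, the NONO count was 13 of 62 genes tested and the share of calls that were raised was 53.8% in place of 72.4%, with a shift of the same direction over all genes (34.4% in place of 48.4%).

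**Figure D2:**
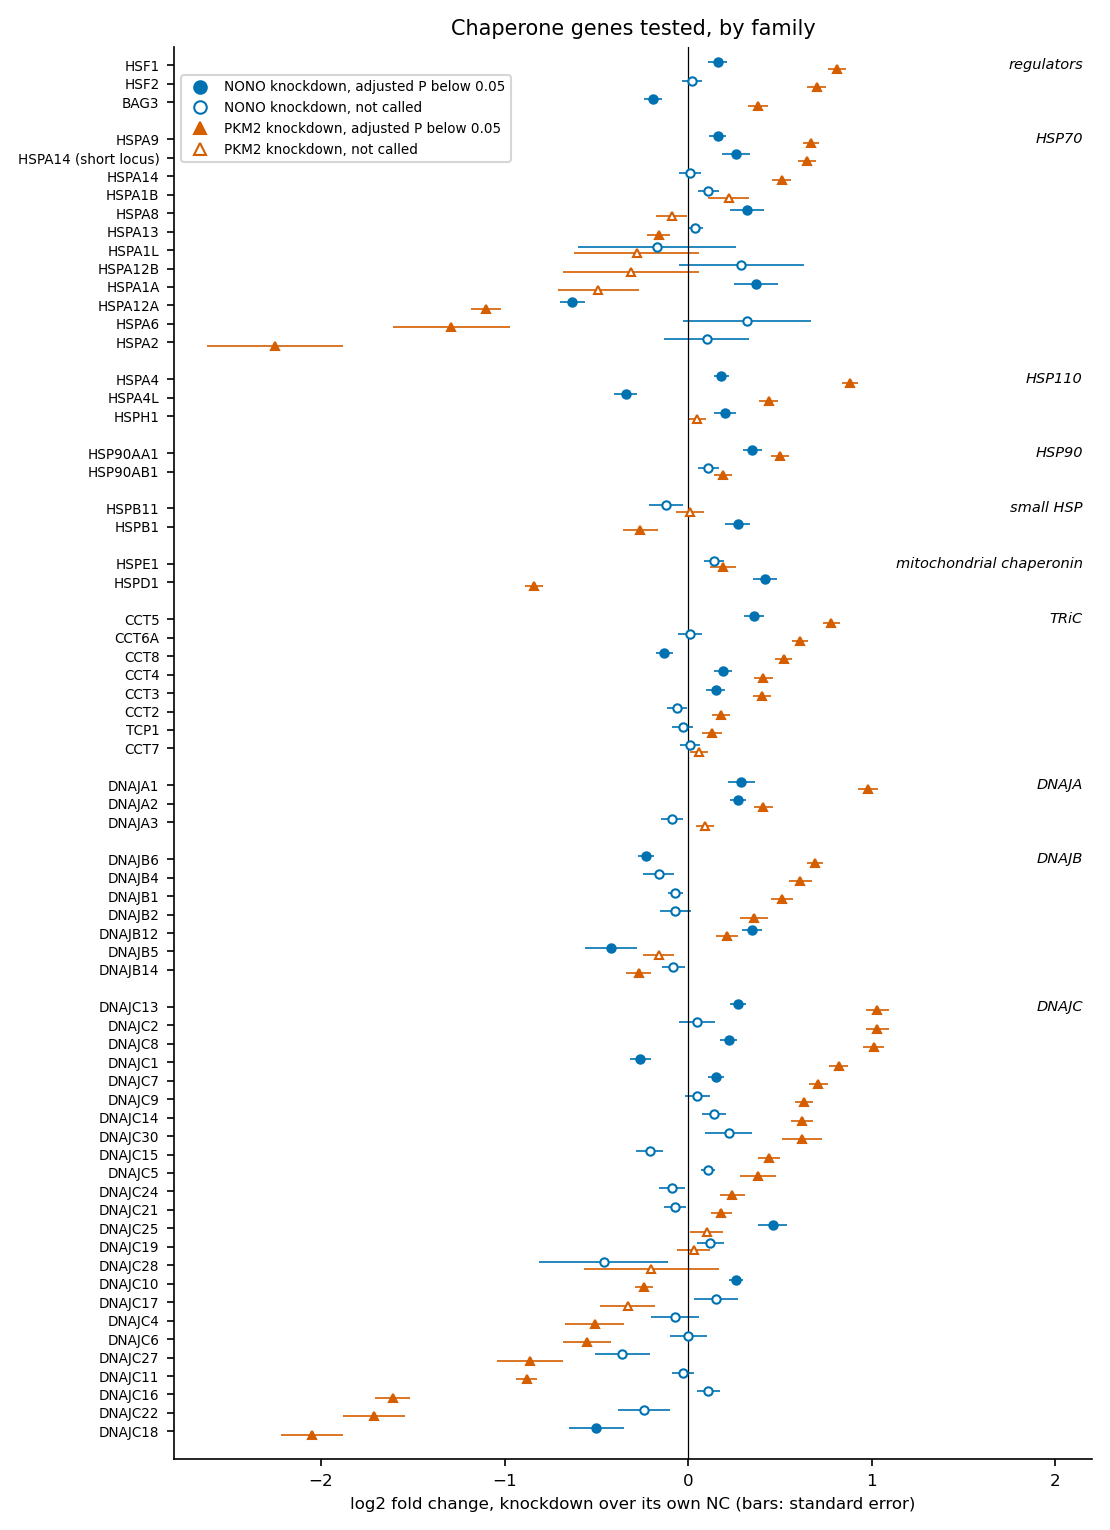
Log2 fold change (horizontal axis, bars are standard errors) of the 66 chaperone genes tested, by family, after NONO knockdown (circles) and PKM2 knockdown (triangles), with filled symbols where the edgeR adjusted P was below 0.05. Most filled triangles lie right of 0, apart from HSPD1, HSPB1, DNAJB14, several HSP70 genes and the lower end of the DNAJC genes, which reaches -2.05 at DNAJC18.

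All 3 regulators were called raised after PKM2 knockdown, where 33.6% of all genes were raised. HSF1 (ENSG00000185122) was at 111, 114 and 112 TPM in NC and at 181, 180 and 175 TPM in PKM2-knockdown libraries. HSF2, a second heat shock factor that can form mixed trimers with HSF1, was at 29.9, 36.3 and 30.7 TPM in NC and at 55.5, 48.8 and 45.9 TPM after PKM2 knockdown. BAG3, a co-chaperone that loads HSP70 clients for autophagy, was at 146, 136 and 145 TPM and at 168, 170 and 169 TPM. In all 3 genes every knockdown library lay above every NC library. The log2 fold changes were 0.81 ± 0.049 for HSF1, 0.70 ± 0.052 for HSF2 and 0.38 ± 0.054 for BAG3 (standard error, edgeR adjusted P = 4.8e-08, 2.34e-07 and 6.05e-05). After NONO knockdown BAG3 moved the other way, from 155, 144 and 139 TPM to 122, 126 and 125 TPM (log2 fold change -0.19 ± 0.049, edgeR adjusted P = 0.0112, and 0.051 without knockdown library 1). HSF1 changed by 0.16 ± 0.052 (edgeR adjusted P = 0.0319) with overlapping TPM values. Its call was lost in 5 of 6 fits that left out a library (adjusted P = 0.0543 to 0.135), all but that without NC library 1, and with limma on log2(TPM + 1) (0.191). For HSF2 the log2 fold change was 0.02 (edgeR adjusted P = 0.775), which was -0.07 on TPM values. The difference between the knockdowns, tested as an interaction over the 12 libraries, was 0.63 for HSF1, 0.67 for HSF2 and 0.55 for BAG3 (edgeR adjusted P = 2.17e-06, 7.74e-07 and 1.1e-05).

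HSF1 binds inverted repeats of the letters GAA. Words of 13 letters made of GAA, NN, TTC, NN and GAA, or of TTC, NN, GAA, NN and TTC (N is any base), were searched in RefSeq promoter windows of GRCh38.p14 that run from 250 bases before to 50 after a gene's start. Each word is the reverse complement of the other, so both strands are covered. They occurred in 0.49% of all 35116 windows, and in 7 of the 67 chaperone gene names that have a window (10.4%, against 0.608% of all 27305 genes with one). The words are shown with 10 bases on each side, 5′ to 3′ on the gene's strand with the word in capitals, because HSF1 is known to bind such repeats. HSPD1 holds a second word that overlaps the one listed and begins under 10 bases from the window's edge. Its letters outside the listed word are in lower case here, and the HSPD1 window printed further on has both in capitals.
DNAJA1, chr9:33025266-33025298, plus strand: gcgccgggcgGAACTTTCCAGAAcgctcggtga
DNAJB6, chr7:157336863-157336895, plus strand: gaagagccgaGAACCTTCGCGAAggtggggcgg
HSP90AA1, chr14:102087110-102087142, minus strand: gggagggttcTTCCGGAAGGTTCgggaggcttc
HSP90AB1, chr6:44247768-44247800, plus strand: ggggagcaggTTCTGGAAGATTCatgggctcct
HSP90AB1, chr6:44247821-44247853, plus strand: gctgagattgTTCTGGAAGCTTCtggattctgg
HSPA6, chr1:161524456-161524488, plus strand: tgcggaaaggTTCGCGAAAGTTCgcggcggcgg
HSPA8, chr11:123062344-123062376, minus strand: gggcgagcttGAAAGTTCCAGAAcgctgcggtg
HSPA8, chr11:123062169-123062201, minus strand: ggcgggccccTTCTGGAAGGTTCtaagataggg
HSPD1, chr2:197500058-197500090, minus strand: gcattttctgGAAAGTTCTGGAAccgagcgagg
The genes that hold a word did not move together. After PKM2 knockdown 4 of the 7 were raised (DNAJA1, DNAJB6, HSP90AA1 and HSP90AB1), 2 were lowered (HSPA6 and HSPD1) and HSPA8 was not called, with a median log2 fold change of 0.19, beside 33 raised and 13 lowered of the 59 others and a median of 0.21. After NONO knockdown 4 of the 7 were raised and 1 lowered, with a median of 0.32, beside 17 raised and 7 lowered of 59 and a median of 0.04. Of the 4 raised genes that hold a word, HSPA8 lost the call in 4 of 6 fits without a library and DNAJA1 in 1. Only 57 of the tested gene names have a window, so the 59 others include genes that were not searched. They also include HSPA1A, HSPA1B, HSPH1, HSPB1, HSPE1, DNAJB1, HSPA4 and BAG3, taken further on as textbook heat-inducible genes. The split is therefore one of letters, and does not part HSF1 targets from other genes. Over all genes, 33.6% were raised and 34.7% lowered after PKM2 knockdown, and 16.2% and 17.2% after NONO knockdown. A match is a description of letters in these windows and is not a measured binding site.

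The mitochondrial chaperonin pair parted after PKM2 knockdown. HSPD1 (ENSG00000144381, chromosome 2, 197486581 to 197516737, minus strand in GENCODE 29 on GRCh38) was at 611, 576 and 571 TPM in NC and at 323, 324 and 309 TPM in knockdown libraries. Its head-to-head neighbour HSPE1 (ENSG00000115541, 197499994 to 197503457, plus strand) was at 1080, 980 and 974 TPM and at 1080, 1030 and 1130 TPM. HSPD1 fell in every knockdown library and the groups did not overlap, whereas those of HSPE1 did. The log2 fold changes were -0.84 ± 0.048 for HSPD1 (1.78-fold, edgeR adjusted P = 2.68e-08) and 0.19 ± 0.072 for HSPE1 (edgeR adjusted P = 0.0333). The HSPE1 call was lost without NC library 2 (0.14), NC library 3 (0.12) or knockdown library 3 (0.0607), and with limma on log2(TPM + 1) (0.09, 0.172). HSPD1 therefore went from 0.563 to 0.588 of the HSPE1 level in NC to 0.274 to 0.314 after knockdown, as a ratio of TPM values within each library.

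After NONO knockdown HSPD1 changed in the opposite direction. It was at 625, 516 and 535 TPM in NC and at 690, 688 and 735 TPM in knockdown libraries, which did not overlap (log2 fold change 0.42 ± 0.066, edgeR adjusted P = 0.000556, and limma 0.0655 on log2(TPM + 1) without the TPM filter). HSPE1 was at 839, 762 and 807 TPM and at 800, 829 and 878 TPM, with overlapping groups and a log2 fold change of 0.14 ± 0.053 (edgeR adjusted P = 0.0584, and 0.00344 without NC library 1 and 0.0459 without knockdown library 1). The ratio of HSPD1 to HSPE1 was 0.663 to 0.744 in NC and 0.83 to 0.862 after NONO knockdown. The difference between the knockdowns was -1.27 ± 0.09 for HSPD1 (edgeR adjusted P = 4.02e-09) and 0.04 ± 0.099 for HSPE1 (edgeR adjusted P = 0.785). Rows named as HSPD1 pseudogenes held 0.241 to 0.774% of the HSPD1 counts in the PKM2 experiment. The annotated exons of HSPD1 and HSPE1 overlap on opposite strands over 281 bases, and HSPE1 shares 192 bases with the readthrough gene HSPE1-MOB4. How reads there were assigned is not given in the sources used here.

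**Figure D3:**
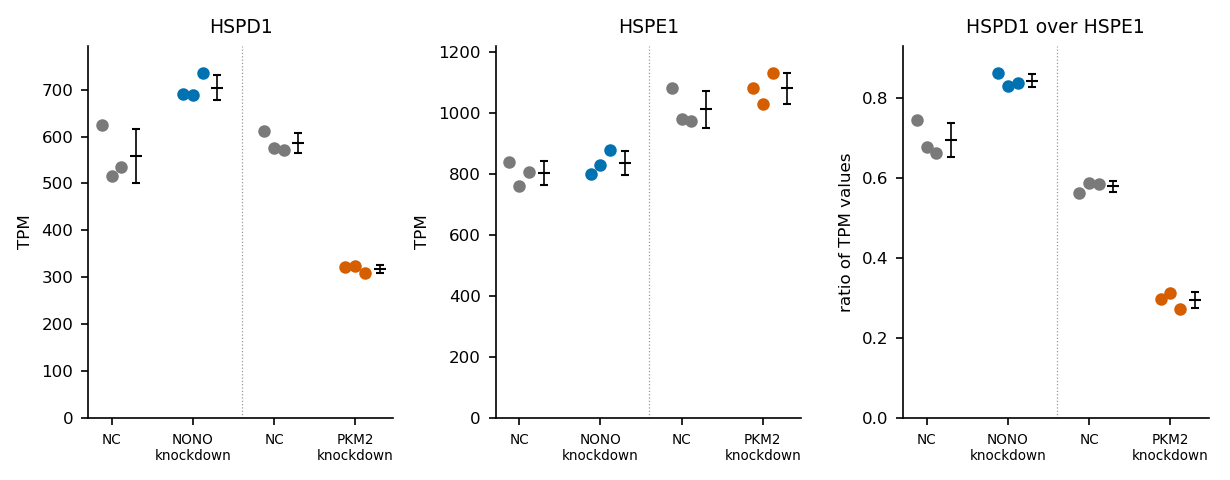
TPM of HSPD1 and HSPE1 and the ratio of their TPM values in each library (points) by group, with the mean and SD of 3 libraries as black bars and a dotted line between the experiments. HSPD1 lies at 309 to 324 TPM after PKM2 knockdown, below the 571 to 611 TPM of its NC group, while HSPE1 overlaps.

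The promoter windows of this pair are printed because the genes lie head to head and moved apart. RefSeq gives HSPE1 1 window and HSPD1 2 windows, whose starts lie 105 and 539 bases from that of HSPE1. The nearer HSPD1 window holds no word and shares 204 bases with the HSPE1 window, so it is not printed. The HSPD1 window that holds the words runs 5′ to 3′ on the minus strand, with 2 words that share 8 bases in capitals, beginning 245 bases before the HSPD1 start and lying 294 bases from the HSPE1 start. The HSPE1 window is on the plus strand and holds no such word. The words, at 197500068 to 197500085, lie outside that window but within the HSPE1 gene as GENCODE places it. Which gene is said to hold them thus depends on the start and window used.
HSPD1, chr2:197499791-197500090, minus strand: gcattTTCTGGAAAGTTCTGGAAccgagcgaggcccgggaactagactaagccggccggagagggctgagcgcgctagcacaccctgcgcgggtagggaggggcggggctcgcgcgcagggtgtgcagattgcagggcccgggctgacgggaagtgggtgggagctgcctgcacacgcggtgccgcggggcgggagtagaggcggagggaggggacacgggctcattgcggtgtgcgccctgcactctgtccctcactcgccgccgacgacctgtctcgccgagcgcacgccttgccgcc
HSPE1, chr2:197500129-197500428, plus strand: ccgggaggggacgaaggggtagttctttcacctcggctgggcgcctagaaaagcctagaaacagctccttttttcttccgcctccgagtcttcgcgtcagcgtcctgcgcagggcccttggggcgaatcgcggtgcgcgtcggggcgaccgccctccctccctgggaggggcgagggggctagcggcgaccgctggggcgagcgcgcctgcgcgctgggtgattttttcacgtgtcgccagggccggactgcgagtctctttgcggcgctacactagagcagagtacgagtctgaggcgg
Both windows are rich in G and C, at 70.7% for HSPD1 and 67% for HSPE1.

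Other genes of mitochondrial protein folding and turnover were read from a list of 8 partners. After PKM2 knockdown 5 were raised and 2 lowered (33.6% and 34.7% of all genes), and after NONO knockdown 3 were raised and 1 lowered (16.2% and 17.2%). LONP1, the matrix protease that removes misfolded proteins, rose after PKM2 knockdown from 123 to 246 TPM on average (log2 fold change 1.19, edgeR adjusted P = 1.03e-09), and CLPP, the peptidase core of the ClpXP protease, fell from 130 to 80.4 TPM (-0.51, edgeR adjusted P = 0.000156). GRPEL1, the nucleotide exchange factor of mitochondrial HSP70, rose after PKM2 knockdown (0.51, edgeR adjusted P = 3.32e-06) and fell after NONO knockdown (-0.58, edgeR adjusted P = 4.22e-05). HSPA9 itself, the mitochondrial HSP70, was at 202, 198 and 197 TPM in NC and at 286, 283 and 254 TPM after PKM2 knockdown (log2 fold change 0.67 ± 0.042, edgeR adjusted P = 5.42e-08), so it rose where HSPD1 fell. After NONO knockdown HSPA9 was at 220, 219 and 196 TPM and at 209, 209 and 222 TPM, and its call (0.16, edgeR adjusted P = 0.022) was lost in 5 of 6 fits that left out a library, all but that without NC library 1, and on TPM values (0.01).

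Of the 8 TRiC subunits, 7 were called raised after PKM2 knockdown, where 33.6% of all genes were raised, and CCT7 was not called. CCT5 (the epsilon subunit) was at 542, 505 and 531 TPM in NC and at 801, 770 and 833 TPM in knockdown libraries, the largest rise of the ring (log2 fold change 0.78 ± 0.047, edgeR adjusted P = 3.93e-08). CCT8 (theta) was at 355, 360 and 348 TPM and at 464, 468 and 467 TPM (0.52 ± 0.047, edgeR adjusted P = 1.3e-06). CCT6A, CCT4 and CCT3 followed at 0.61, 0.41 and 0.40, and CCT2 and TCP1 at 0.18 and 0.13 (edgeR adjusted P = 0.0495 for TCP1). On the TPM scale TCP1 averaged 366 TPM in NC and 358 TPM after knockdown, and CCT2 averaged 240 and 247 TPM, both with overlapping groups. CCT7 averaged 435 and 418 TPM, and every knockdown library lay below NC although its log2 fold change on counts was 0.06 (edgeR adjusted P = 0.291). The summed level of the 8 subunits went from 2881 ± 50.5 to 3479 ± 14.57 TPM (SD, n = 3 each). The products assemble in equal numbers in the ring, and within a library the most abundant subunit message exceeded the least by 2.32 to 2.56 times in NC and by 3.13 to 3.41 times after PKM2 knockdown, with CCT5 highest in all 6 libraries of that experiment. TCP1 shares 397 exonic bases with ACAT2 on the other strand, so its small change on counts is uncertain. CCT5 shares 1757 exonic bases with AC012640.4 on the other strand, and how reads there were split is likewise not given in the sources used here.

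After NONO knockdown the ring did not move in a single direction. Raised were 3 of the 8 subunits and lowered 1, where 16.2% of all genes were raised and 17.2% lowered. CCT5 rose from 415, 355 and 376 TPM to 469, 478 and 483 TPM (log2 fold change 0.36 ± 0.055, edgeR adjusted P = 0.000533), and CCT3 and CCT4 were called with 0.15 and 0.19. CCT8 went from 373, 341 and 357 TPM to 302, 312 and 328 TPM, groups that did not overlap (-0.13 ± 0.046, edgeR adjusted P = 0.0429). This call of CCT8 was lost with DESeq2 (0.0524), with relative log expression factors (0.0605), with the replicate number as a block (0.0891), and in 4 of 6 fits without a library (0.0691 to 0.176), namely NC library 3 or any knockdown library. Their summed level was 2647 ± 178.4 TPM in NC and 2685 ± 66.73 TPM after NONO knockdown (SD, n = 3 each). For 6 of the 8 subunits the difference between the knockdowns was called, with the higher change after PKM2 knockdown in each, among them 0.64 for CCT8 and 0.41 for CCT5 (edgeR adjusted P = 6.52e-07 and 0.000302). Over all 15995 genes tested, 53.1% were called for the difference, 25.7% with the higher change after PKM2 knockdown. As for prefoldin, the cytosolic complex that hands actin and tubulin to TRiC, 4 of 6 genes were raised and PFDN6 lowered after PKM2 knockdown. Of all genes, 33.6% were raised and 34.7% lowered there. After NONO knockdown edgeR called 0 of 6, with adjusted P from 0.235 to 0.616, where 33.4% of all genes were called. PFDN1 had a log2 fold change of 0.89 and PFDN2 of 0.84 after PKM2 knockdown (edgeR adjusted P = 2.24e-08 and 5.62e-07), while PFDN6 had -0.69 (edgeR adjusted P = 6.52e-06).

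**Figure D4:**
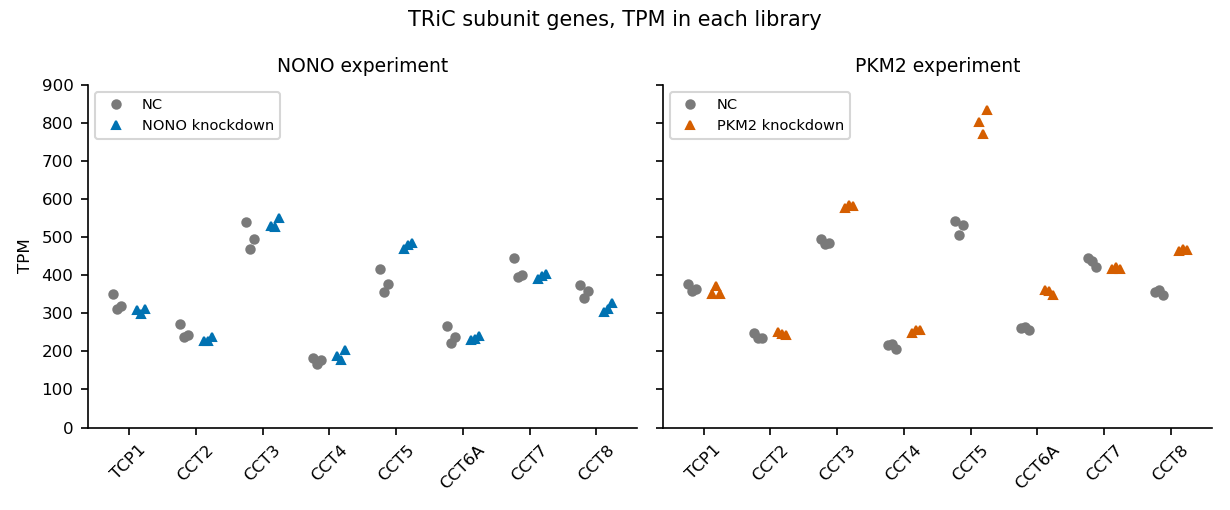
TPM of the 8 TRiC subunit genes in each library of the NONO experiment (left) and the PKM2 experiment (right), with grey circles for NC and triangles for knockdown libraries. CCT5 stands at 770 to 833 TPM after PKM2 knockdown, above its NC libraries at 505 to 542 TPM, while the CCT2 and TCP1 groups overlap.

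Of the 12 HSP70 genes tested, 3 were raised, 4 lowered and 5 not called after PKM2 knockdown, where 33.6% of all genes were raised and 34.7% lowered. The constitutive cytosolic HSPA8 was at 1640, 1280 and 1490 TPM in NC and at 1210, 1290 and 1270 TPM in knockdown libraries, groups that overlapped (log2 fold change -0.09 ± 0.083, edgeR adjusted P = 0.342, and -0.19 with 0.0272 without NC library 2). The genes raised were HSPA9 and both identifiers of HSPA14, which share 460 exonic bases, with log2 fold changes of 0.51 and 0.65. HSPA14 works on the ribosome with the J protein DNAJC2, and DNAJC2 was among the 3 raised DEGs, at 24.1, 26.0 and 21.6 TPM in NC and at 48.1, 45.7 and 42.9 TPM after PKM2 knockdown (1.03 ± 0.063, edgeR adjusted P = 4.54e-08). After NONO knockdown DNAJC2 was at 27.5, 20.3 and 26.4 TPM and at 24.6, 22.8 and 25.1 TPM (0.05, edgeR adjusted P = 0.734).

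Of the 4 lowered HSP70 genes, 3 were scarce messages. HSPA2, best known from spermatogenesis, was at 1.48, 0.80 and 1.26 TPM in NC and at 0.05, 0.17 and 0.19 TPM after PKM2 knockdown (log2 fold change -2.25 ± 0.37, edgeR adjusted P = 0.000177), on 5 to 65 counts per library. HSPA6, which cells make only under strong heat or proteotoxic stress, was at 1.16, 0.77 and 1.07 TPM and at 0.31, 0.37 and 0.43 TPM (-1.29 ± 0.32, edgeR adjusted P = 0.00332), on 12 to 52 counts, and its near-identical copy HSPA7 could share its reads. HSPA12A, a distant HSP70 relative, was at 11.8, 11.2 and 10.3 TPM and at 6.34, 5.59 and 5.18 TPM (-1.10 ± 0.083, edgeR adjusted P = 2.71e-07). None of the 3 had overlapping groups. HSPA13, at 30.8 TPM on average in NC and 25.1 TPM after PKM2 knockdown, was the most abundant that fell (-0.16, edgeR adjusted P = 0.0418). HSPA12A was lowered in both experiments, and after NONO knockdown it went from 7.95, 8.04 and 7.86 TPM to 4.72, 5.68 and 5.95 TPM, the largest fall of any chaperone gene there (-0.63 ± 0.069, edgeR adjusted P = 5.13e-05, and limma 0.0625 on log2(TPM + 1) without the TPM filter). HSPA2 and HSPA6 were not called after NONO knockdown (0.10 and 0.32, edgeR adjusted P = 0.791 and 0.528), and the difference between the knockdowns was -2.36 for HSPA2 and -1.63 for HSPA6 (edgeR adjusted P = 0.000188 and 0.00933).

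The inducible cytosolic HSP70 is encoded by HSPA1A and HSPA1B, whose sequences are so alike that the split of reads between them is uncertain. Listed apart, HSPA1A was at 16.4, 11.4 and 13.7 TPM in NC and at 17.3, 18.1 and 15.9 TPM after NONO knockdown (log2 fold change 0.37 ± 0.12, edgeR adjusted P = 0.0333), with overlapping groups. The call was lost in 4 of 6 fits without a library (0.0869 to 0.13), namely NC library 2 or 3 or knockdown library 1 or 2, and with limma on log2(TPM + 1) (0.15). In the PKM2 experiment HSPA1A was at 13.8, 7.44 and 12.7 TPM and at 7.41, 9.56 and 5.47 TPM (-0.49 ± 0.22, edgeR adjusted P = 0.0657, and 0.00274 without NC library 2 and 0.0242 without knockdown library 2). HSPA1B held most of the pair's level, at 149 to 206 TPM over the PKM2 experiment, and was called in neither, with a call without NC library 1 in both the NONO experiment (0.19, adjusted P = 0.000125) and the PKM2 experiment (0.32, adjusted P = 0.0296). Added together, the pair went from 319 ± 28.8 to 348 ± 9.28 CPM (counts scaled to the TMM-normalized library size) after NONO knockdown, while PKM2 knockdown took it from 316 ± 57.7 to 362 ± 26.4 CPM (n = 3 each, SD). Neither difference passed a two-sided exact permutation test (P = 0.3 and 0.5), for which 3 libraries against 3 cannot give less than 0.1.

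HSPA8 was called after NONO knockdown and not after PKM2 knockdown, with 1670, 1240 and 1330 TPM in NC and 1670, 1700 and 1790 TPM in knockdown libraries. NC library 1 stood at the knockdown level, and the groups overlapped (log2 fold change 0.32 ± 0.091, edgeR adjusted P = 0.0187). The call was lost with DESeq2 (0.0911), with limma on log2(TPM + 1) (0.0929) and without NC library 2 or 3 or knockdown library 2 or 3 (0.0531 to 0.0774), while without NC library 1 the change was 0.48. The difference between the knockdowns was -0.43 ± 0.14 (edgeR adjusted P = 0.0181), and was lost with DESeq2 (0.0881) and without NC library 2 or 3 of the NONO experiment or NC library 1 of the PKM2 experiment (0.0597 to 0.0676).

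The HSP110 genes, whose products exchange nucleotide on HSP70, were called in 3 of 3 after NONO knockdown and 2 of 3 after PKM2 knockdown, where 33.4% and 68.4% of all genes were called. HSPA4 (APG-2) was at 194, 192 and 171 TPM in NC and at 308, 316 and 327 TPM after PKM2 knockdown (log2 fold change 0.88 ± 0.044, edgeR adjusted P = 9.76e-09), and rose less after NONO knockdown, from 153, 151 and 156 TPM to 162, 166 and 173 TPM (0.18 ± 0.041, edgeR adjusted P = 0.00628, and limma 0.0834 on log2(TPM + 1)). HSPA4L, at 16.8 to 25.4 TPM over all 12 libraries, went in opposite directions on counts, 0.44 ± 0.052 after PKM2 knockdown and -0.34 ± 0.063 after NONO knockdown (edgeR adjusted P = 1.28e-05 and 0.00167). On log2(TPM + 1) values these were 0.21 and -0.19, and both calls were lost (limma adjusted P = 0.0589 and 0.178). HSPH1 (HSP105), a heat-inducible member, was at 220, 192 and 206 TPM in NC and at 231, 230 and 240 TPM after NONO knockdown (0.20 ± 0.061, edgeR adjusted P = 0.0281). This call was lost in 5 of 6 fits without a library (0.0778 to 0.0972), all but that without NC library 1, and with limma on log2(TPM + 1) (0.0629). After PKM2 knockdown HSPH1 had a log2 fold change of 0.05 on counts (edgeR adjusted P = 0.356) and of -0.08 on TPM values. The difference between the knockdowns was 0.69 for HSPA4 and 0.77 for HSPA4L (edgeR adjusted P = 7.49e-08 and 8.2e-07).

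HSP90AA1, the stress-responsive cytosolic HSP90, rose after both knockdowns. It was at 980, 842 and 891 TPM in NC and at 1100, 1090 and 1130 TPM after NONO knockdown (log2 fold change 0.35 ± 0.053, edgeR adjusted P = 0.000476, and limma 0.0505 on log2(TPM + 1) without the TPM filter), and at 985, 914 and 910 TPM and at 1230, 1210 and 1180 TPM in the PKM2 experiment (0.50 ± 0.048, edgeR adjusted P = 2.13e-06), with no overlap in either. HSP90AB1, the constitutive form and the most abundant chaperone message, was at 1600 to 1880 TPM in NC and at 1760 to 1820 TPM after NONO knockdown (0.11, edgeR adjusted P = 0.151, and 0.20 with 8.81e-07 without NC library 1). In the PKM2 experiment it was at 1800 to 1910 TPM in NC and at 1900 to 1930 TPM after knockdown (0.19 ± 0.047, edgeR adjusted P = 0.00358), a change that was 0.06 on TPM values (limma adjusted P = 0.127). The ratio of HSP90AA1 to HSP90AB1 within a library rose from 0.52 to 0.536 in NC to 0.617 to 0.622 after NONO knockdown, and from 0.506 to 0.516 to 0.623 to 0.64 after PKM2 knockdown. For neither gene was the difference between the knockdowns called (0.13 ± 0.079 and 0.06 ± 0.082, edgeR adjusted P = 0.174 and 0.54), although that of HSP90AA1 was without NC library 2 of the NONO experiment (0.20, 0.0441).

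HSPB1 (HSP27), the small HSP that holds unfolded proteins without ATP, was at 212, 241 and 220 TPM in NC and at 262, 276 and 235 TPM after NONO knockdown (log2 fold change 0.27 ± 0.069, edgeR adjusted P = 0.0108, 0.0649 without knockdown library 2 and limma 0.0991 on log2(TPM + 1)). After PKM2 knockdown it went from 256, 255 and 282 TPM to 183, 204 and 229 TPM (-0.26 ± 0.094, edgeR adjusted P = 0.0263). That call was lost without NC library 1 or 3 or knockdown library 1 or 2 (0.0547 to 0.114). The groups overlapped in the NONO experiment and not in the PKM2 experiment, and the difference between the knockdowns was -0.55 ± 0.13 (edgeR adjusted P = 0.00173).

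Among the DNAJA and DNAJB genes, which recruit HSP70 to general clients, DNAJA1 showed the largest change. It was at 167, 155 and 163 TPM in NC and at 290, 292 and 299 TPM after PKM2 knockdown (log2 fold change 0.98 ± 0.056, 1.98-fold, edgeR adjusted P = 2.7e-08), and at 155, 125 and 132 TPM and at 159, 159 and 166 TPM in the NONO experiment (0.29 ± 0.072, edgeR adjusted P = 0.0106, 0.0513 without knockdown library 3 and limma 0.0829 on log2(TPM + 1)). DNAJB1, the classic HSP40 partner of HSPA1A, was at 146, 131 and 142 TPM and at 180, 184 and 182 TPM after PKM2 knockdown (0.51 ± 0.059, edgeR adjusted P = 1.11e-05) and was not called after NONO knockdown (-0.07, edgeR adjusted P = 0.248). DNAJB6, which blocks the aggregation of polyglutamine proteins, moved in opposite directions on counts. It rose from 414, 402 and 379 TPM to 552, 572 and 492 TPM after PKM2 knockdown (0.69 ± 0.044, edgeR adjusted P = 6.64e-08) and fell from 406, 364 and 383 TPM to 329, 347 and 358 TPM after NONO knockdown (-0.23 ± 0.042, edgeR adjusted P = 0.00163, and limma 0.0792 on log2(TPM + 1)), a difference of 0.91 ± 0.063 (edgeR adjusted P = 3.18e-09). Of the 7 DNAJB genes tested, 5 were raised and 1 lowered after PKM2 knockdown (33.6% and 34.7% of all genes), and 1 raised and 2 lowered after NONO knockdown (16.2% and 17.2%). The raised gene there was DNAJB12, an ER membrane J protein (0.35 ± 0.055, edgeR adjusted P = 0.000648), which was also called raised after PKM2 knockdown (0.21, edgeR adjusted P = 0.00959, and 0.0568 without NC library 1). On log2(TPM + 1) values DNAJB12 was called in neither, at 0.21 after NONO and 0.04 after PKM2 knockdown (limma adjusted P = 0.0708 and 0.704). DNAJB5 was the other lowered gene (-0.42 ± 0.14, edgeR adjusted P = 0.0379). Its call was lost with DESeq2 (0.0549), with limma on log2(TPM + 1) (0.0539) and without NC library 2 or 3 or knockdown library 1 or 3 (0.0977 to 0.155).

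The DNAJC genes, a mixed class with specialised posts, held the widest range. After PKM2 knockdown 12 of 24 were raised and 8 lowered (33.6% and 34.7% of all genes), and after NONO knockdown 5 were raised and 2 lowered (29.2% called, against 33.4% of all genes). DNAJC8, a splicing-associated J protein, was at 105, 103 and 105 TPM in NC and at 189, 187 and 197 TPM after PKM2 knockdown (log2 fold change 1.01 ± 0.058, edgeR adjusted P = 2.7e-08). DNAJC13, which acts on endosomes, was at 30.2, 33.0 and 29.7 TPM and at 62.5, 61.7 and 48.7 TPM (1.03 ± 0.062, edgeR adjusted P = 4.18e-08). Both were also called raised after NONO knockdown, by 0.22 and 0.27 on the log2 scale (edgeR adjusted P = 0.00324 and 0.00064, and limma 0.0697 and 0.0299 on log2(TPM + 1)), as was DNAJC7, a bridge between HSP70 and HSP90 (0.71 ± 0.054 after PKM2 and 0.15 ± 0.043 after NONO knockdown, edgeR adjusted P = 2.85e-07 and 0.0199). The DNAJC7 call after NONO knockdown was lost in 5 of 6 fits without a library (0.0504 to 0.0859), all but that without NC library 1, with the replicate number as a block (0.0508) and with limma on log2(TPM + 1) (0.0663). The largest rise after NONO knockdown was that of DNAJC25, from 9.59, 8.90 and 10.1 TPM to 12.6, 12.3 and 13.2 TPM (0.46 ± 0.08, edgeR adjusted P = 0.00116). It shares 358 bases with the readthrough gene DNAJC25-GNG10, and it was not called after PKM2 knockdown (0.10, edgeR adjusted P = 0.34, and 0.0218 without knockdown library 3).

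The lowered DNAJC genes were mostly of low abundance. DNAJC16 was at 10.6, 8.21 and 7.89 TPM in NC and at 3.2, 3.4 and 2.82 TPM after PKM2 knockdown (log2 fold change -1.61 ± 0.094, edgeR adjusted P = 3.16e-08) and stayed between 7.38 and 8.22 TPM in the NONO experiment. DNAJC22 was at 4.28, 2.86 and 2.99 TPM and at 1.04, 0.63 and 0.87 TPM after PKM2 knockdown (-1.71 ± 0.17, edgeR adjusted P = 2.71e-06). DNAJC18, a J protein of the ER membrane, was at 5.97, 6.16 and 3.89 TPM and at 0.69, 0.87 and 2.25 TPM (-2.05 ± 0.17, edgeR adjusted P = 7.61e-07), a 4.14-fold fall. In these 3 genes no knockdown library reached an NC library. DNAJC11, a protein of the mitochondrial membrane organising system, was more abundant and went from 46.9 ± 0.211 to 27.4 ± 3.44 TPM (SD, n = 3 each, -0.88, edgeR adjusted P = 6.34e-08). DNAJC18 was also lowered after NONO knockdown, from 3.5, 4.24 and 4.44 TPM to 1.82, 1.70 and 1.47 TPM (-0.50 ± 0.15, edgeR adjusted P = 0.0226). That call did not hold without NC library 3 or knockdown library 1 or 3 (0.0718 to 0.0864).

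For 2 genes the TPM values and the counts told different stories after NONO knockdown. DNAJB14, an ER membrane J protein, went from 29.2, 13.6 and 24.4 TPM to 8.22, 9.97 and 11.8 TPM, while its counts hardly moved (log2 fold change -0.08 ± 0.061, edgeR adjusted P = 0.349, against -1.03 on log2(TPM + 1), limma adjusted P = 0.0386). The estimated count per TPM, which follows the effective length given to a gene's mix of transcripts, was taken relative to the median gene of each library. It rose by 0.97 on the log2 scale for DNAJB14 and by 0.75 for DNAJC18. No other of the 61 chaperone genes with at least 1 TPM and 10 counts in every library moved by over 0.5, and 0.922% of 12369 genes did. In the PKM2 experiment 0 of 58 chaperone genes and 1.76% of 12172 genes did. In the PKM2 experiment DNAJB14 was at 27.8, 17.5 and 19.7 TPM and at 12.7, 19.7 and 13.4 TPM, overlapping groups, and was called lowered on counts (-0.27 ± 0.066, edgeR adjusted P = 0.00341) and not on log2(TPM + 1) (-0.48, limma adjusted P = 0.0869). These shifts in count per TPM are a description with no test, and the NC values of DNAJB14 ranged from -0.37 to 0.84.

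Both knockdowns were set side by side for the 66 genes tested in each, with separate NC groups. Called in both with the same direction were 16 genes (24.2%, against 19.3% of the 14525 genes tested in both experiments). Raised in both were 14 (21.2%, against 9.34%), namely CCT3, CCT4, CCT5, DNAJA1, DNAJA2, DNAJB12, DNAJC7, DNAJC8, DNAJC13, HSF1, HSP90AA1, the short HSPA14 locus, HSPA4 and HSPA9. With limma on log2(TPM + 1), 13 of the 14 kept the call after PKM2 knockdown and 4 kept it after NONO knockdown (CCT5, DNAJA2, DNAJC13 and HSP90AA1). Lowered in both were DNAJC18 and HSPA12A (3.03%, against 9.93%), also with limma. Opposite calls were made for 8 (12.1%, against 7.97%). DNAJC10, HSPB1 and HSPD1 were raised after NONO and lowered after PKM2 knockdown (4.55%, against 3.79%), and BAG3, CCT8, DNAJB6, DNAJC1 and HSPA4L the reverse (7.58%, against 4.18%). With limma the opposite calls were kept in both experiments by DNAJC10, HSPD1, BAG3, CCT8 and DNAJC1. A call after PKM2 knockdown alone was made for 28 (42.4%, against 43.0%), after NONO knockdown alone for 5 (7.58%, against 6.69%), and in neither for 9 (13.6%, against 23.0%). DNAJC10 and DNAJC1, both of the ER, changed by 0.26 and -0.26 after NONO knockdown and by -0.24 and 0.82 after PKM2 knockdown (edgeR adjusted P = 0.000516, 0.00551, 0.000726 and 7.77e-08). The difference between the knockdowns was called for 45 of the 66 (68.2%, against 53.1% of 15995 genes), with the change after PKM2 knockdown the higher in 29 (43.9%, against 25.7%) and the lower in 16 (24.2%, against 27.4%).

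**Figure D5:**
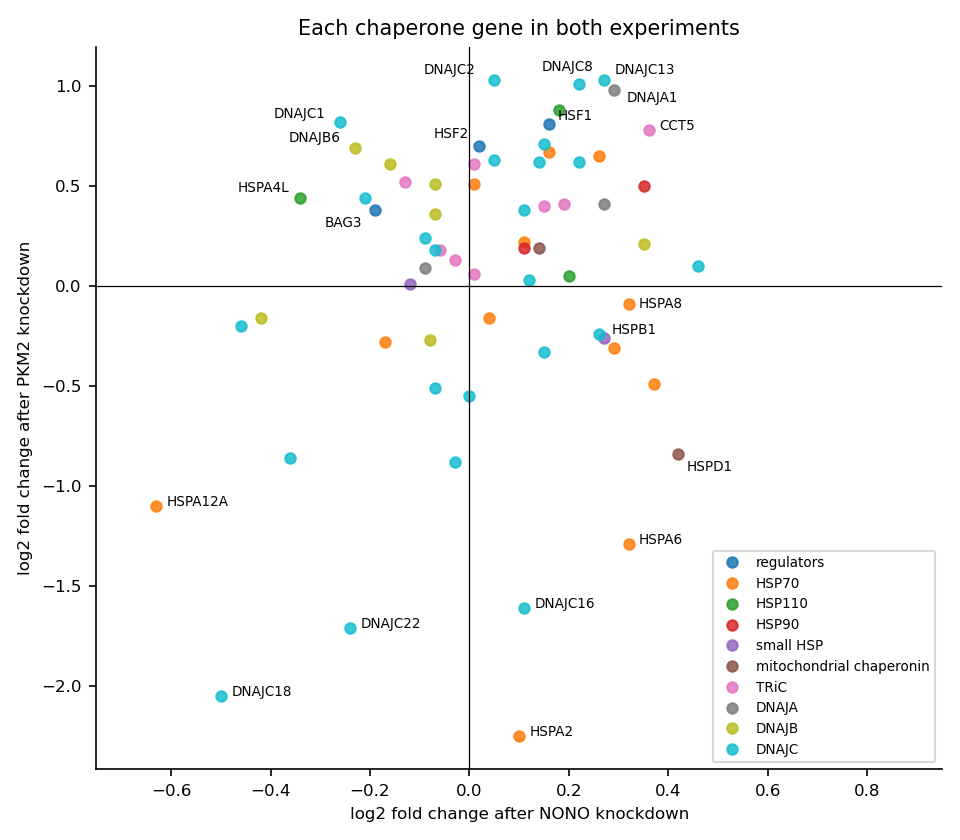
Log2 fold change after NONO knockdown (horizontal axis) against that after PKM2 knockdown (vertical axis) for each of the 66 chaperone genes tested, coloured by family. HSPD1 lies at 0.42 and -0.84, in the lower right, and HSPA4L at -0.34 and 0.44, in the upper left.

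The 14 genes taken as textbook heat-inducible members gave no single picture. The list includes HSPA8 and HSP90AB1, which are described above as constitutive. After PKM2 knockdown 7 were raised (BAG3, DNAJA1, DNAJB1, HSP90AA1, HSP90AB1, HSPA4 and HSPE1), 3 lowered (HSPA6, HSPB1 and HSPD1) and 4 not called (33.6% of all genes were raised and 34.7% lowered). After NONO knockdown 8 were raised, where 16.2% of all genes were, and BAG3 was lowered. Of these 8, HSPA1A, HSPA8 and HSPH1 lost the call in 4 or 5 of 6 fits without a library. With limma on log2(TPM + 1), only HSP90AA1 and HSPD1 of the 8 kept the call. Of 20 co-chaperones of HSP70 and HSP90 outside the chosen names, 10 were raised and 6 lowered after PKM2 knockdown (80% called, against 68.4% of all genes), and 6 raised and 2 lowered after NONO knockdown (40% called, against 33.4%). AHSA1, which activates the HSP90 ATPase, rose in both (log2 fold change 0.55 after PKM2 and 0.33 after NONO knockdown, edgeR adjusted P = 2.57e-06 and 0.000307). HSPBP1, a nucleotide exchange factor of HSP70, rose after PKM2 knockdown (0.92, edgeR adjusted P = 4.65e-07), as did CHORDC1, an HSP90 partner (0.80, edgeR adjusted P = 6.26e-08). ST13, which stabilises HSP70 with bound client, and UNC45A, the myosin chaperone, rose after NONO knockdown (0.29 and 0.53) and fell after PKM2 knockdown (-0.36 and -0.17), with edgeR adjusted P of 0.000426, 2.03e-05, 7.54e-05 and 0.0234. HSF4, the heat shock factor of the eye lens, was at 14.6 TPM on average in NC and at 4.05 TPM after PKM2 knockdown (-2.46, edgeR adjusted P = 7.14e-09), so it fell where HSF1 and HSF2 rose, and its log2 fold change in the NONO experiment was 0.01.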

How the data were processed

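RNA-seq of 12 MDA-MB-231 libraries was analysed, made from poly(A) RNA and sequenced paired-end at 150 bases per the labels. The authors deposited, for each experiment, estimated count values and TPM values per gene and library, which they made before deposit. The submitters' processing notes name fastp, HISAT2, StringTie, RSEM, DESeq2, edgeR, limma and hg19 without role or order, and the use of strand is not given in the sources used here. The columns of the authors' own comparisons were not used. Columns were assigned to an experiment by table, since their names repeat.

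Estimated counts were rounded. NC and knockdown libraries of an experiment were compared in edgeR 4.0.16 (R 4.3.3; quasi-likelihood test, TMM, filterByExpr, Benjamini-Hochberg over all genes tested), and the difference was fitted over 12 libraries. Standard errors came from the F statistic. In simulated data with 200 genes changed 4-fold, edgeR recovered 199, 199 and 196 for the NONO, PKM2 and difference comparisons, with 21, 16 and 8 false calls. Smaller changes, as most here were, were not simulated, so recovery of those is not known. The smallest P of an exact permutation of 3 libraries against 3 is 0.1. Replicates differed by more than sampling noise, so none was a copy.

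The chaperone genes and lists were chosen with earlier results of these data known. Genes given with values in every library were the regulators, heat-inducible genes, DEGs, and the most abundant gene and largest called fall and rise of each family. DNAJC1, DNAJC10, DNAJC11, HSPA13, HSPA14 and the other genes singled out were chosen after their values were seen. The name rule also left out HSPBP1 and HSPBAP1. Replicate numbers did not pair libraries (same-number correlation of deviations -0.0655 to 0.0365). Alternatives were DESeq2 1.42.0, limma 3.58.1 on log2(TPM + 1) or log2(TPM + 0.1), other factors, filters and cutoffs, a replicate block, a length and GC trend in 20 bins, and each library left out.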

Additional observations from a re-analysis of the deposited data

Results flagged for a closer look

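The genes below were picked out because their log2 fold change after PKM2 knockdown differed from that after NONO knockdown in the interaction test over the 12 libraries (edgeR's quasi-likelihood test, Benjamini-Hochberg adjusted P below 0.05), and each value is the PKM2 change minus the NONO change. Of the 45 chaperone genes called for this difference, the 26 among those with values given in every library are listed, and the rest include DNAJC1 (1.07), DNAJC11 (-0.87) and DNAJB4 (0.75). The change was higher after PKM2 knockdown for DNAJC2 (0.97), DNAJB6 (0.91), DNAJC8 (0.77), HSPA4L (0.77), DNAJC13 (0.74), DNAJA1 (0.69), HSPA4 (0.69), HSF2 (0.67), CCT8 (0.64), HSF1 (0.63), DNAJB1 (0.56), BAG3 (0.55), DNAJC7 (0.55), HSPA9 (0.50) and CCT5 (0.41). It was lower for HSPA2 (-2.36), DNAJC16 (-1.73), HSPA6 (-1.63), DNAJC18 (-1.56), DNAJC22 (-1.48), HSPD1 (-1.27), HSPA1A (-0.87), HSPB1 (-0.55), HSPA12A (-0.47), HSPA8 (-0.43) and DNAJC25 (-0.38). Over all genes tested, 53.1% passed the same test. The call was lost for HSPA1A with DESeq2 (adjusted P = 0.0644) and without NC library 1 of the PKM2 experiment (0.05), and for DNAJC25 without NC library 2 of the NONO experiment (0.0592) or NC library 1 of the PKM2 experiment (0.0508).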

How the results depend on the processing

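The number of chaperone genes called after PKM2 knockdown (52) and for the difference between the knockdowns (45) stayed within 1.5 times under every alternative run. After NONO knockdown 29 became 13 with limma on log2(TPM + 1) or log2(TPM + 0.1), 8 without the TPM filter, 14 at an adjusted P below 0.01, and 18 to 36 when a library was left out (18 without NC library 3 or knockdown library 3, 19 without knockdown library 2). With the replicate number as a block, 26, 51 and 45 were called, and CCT8 and DNAJC7 lost their NONO calls (adjusted P = 0.0891 and 0.0508). DEGs after NONO knockdown numbered 2 (DNAJB14, DNAJC18) with limma on log2(TPM + 0.1), 1 (DNAJB14) with either other limma fit, and 1 (HSPA7, at most 6 counts) without the low-count filter. DEGs after PKM2 knockdown numbered 3 (DNAJC16, DNAJC18, DNAJC22) with each limma fit in place of 9. Of those 9, HSPA2 and HSPA6 were not tested in the limma fits with the TPM filter. The median after NONO knockdown (0.07) was 0.08 with DESeq2, 0.02 on log2(TPM + 0.1), 0.01 on log2(TPM + 1) with or without the filter, and 0.04 to 0.12 when a library was left out. The median after PKM2 knockdown (0.20) was 0.14 on log2(TPM + 1), 0.10 without the TPM filter and 0.14 with the length and GC trend taken out. Taking out that trend also moved single genes after PKM2 knockdown. Among them BAG3 went from 0.38 to 0.63, DNAJB1 from 0.51 to 0.61 and CCT8 from 0.52 to 0.38. The cause of these moves was not tested.

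Some single values that were not called changed sign. After NONO knockdown DNAJC2 was -0.02 in each limma fit and -0.06 to 0.13 when a library was left out, HSF2 was -0.07 in each limma fit, and HSPA2 was -0.02 to 0.25 and HSPA6 -0.14 to 0.59 when a library was left out, both lowest without knockdown library 1. After PKM2 knockdown HSPH1 was -0.08 in each limma fit. The difference was -0.01 to 0.13 for HSP90AB1 when a library was left out, -0.02 for HSPA1B without NC library 2 of the PKM2 experiment and -0.04 for HSPE1 without PKM2-knockdown library 3. Over all genes, the median of log2(TPM + 0.1) changes after PKM2 knockdown was -0.10. Counts of 5 to 65 limit HSPA2 and HSPA6, and 3 libraries a group limit small changes.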
